A study of Mus musculus with 16 samples.

Results

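The 10 genes described here make, break down, sense or carry prostaglandins, and they were taken by name from the 48397 gene symbols that the 16 count files share. By role they are *Hpgd* and *Ptgr1* for breakdown, *Ptgs1*, *Ptgs2*, *Ptges*, *Ptges2*, *Ptges3* and *Ptgds* for synthesis, *Ptger4* as a receptor and *Slco2a1* as a transporter. All 10 passed the filter on low counts, which kept 17038 symbols. *Hpgd* entered the list because its counts had differed between groups in earlier results of these same libraries, so its values are a description and carry no test. The other 9 genes were listed for their role.

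Prostaglandins are short-lived lipid signals. Cyclooxygenases, encoded by *Ptgs1* and *Ptgs2*, turn arachidonic acid that has been freed from membrane lipids into prostaglandin H2, and terminal synthases such as the prostaglandin E synthases make the active forms, which leave the cell and bind G protein-coupled receptors. The transporter encoded by *Slco2a1* brings prostaglandins back into cells, where the dehydrogenase encoded by *Hpgd* starts their inactivation. In forebrain neurons *Ptgs2* is known as an immediate early gene that follows synaptic activity.

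The libraries came from wild type CD1 mouse hippocampal neurons, cultured from pups aged P0 to P2 and given cytosine-β-D-arabinoside on the third day *in vitro* (DIV) against dividing non-neuronal cells. At 10 and 13 DIV the neurons received 10-fold concentrated medium conditioned by immortalized astrocytes, and RNA was taken at 17 DIV. The astrocytes were homozygous for the human *APOE* allele ε2, ε3 or ε4 (groups apoE2, apoE3 and apoE4), or lacked the gene (Apoe-/-, the control group), with 4 libraries per group from cultures that the study describes as independent. All 4 media were conditioned in the presence of 25-hydroxycholesterol, so the control neurons also received what Apoe-/- astrocytes secrete, and each medium came from a cell line and not from several animals.

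The libraries held 14087723 to 34248172 counts on genes. The cells are labelled as neurons, and 8 neuron genes summed to 2879 to 7280 CPM (counts scaled to equal library totals after TMM, a trimmed-mean correction of each total) across the 16 libraries. Astrocyte RNA was present as well, since 8 astrocyte genes summed to 1309 to 6581 CPM, whereas 8 microglial genes summed to 7.19 to 43.0 CPM and 6 endothelial genes to 18.0 to 65.4 CPM. Within these lists the microglial gene *Tmem119* stayed at or under 1.12 CPM and the endothelial gene *Cldn5* at or under 0.564 CPM. Libraries that carry the same replicate number deviated together from their group means, so where a fit with the replicate number as a block changed a call, its value is given beside the fit without it.

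Levels between the genes were compared per length, as CPM per kilobase of exon (RPKM), mean ± SD over the 16 libraries. *Ptges3*, a cytosolic prostaglandin E synthase that is also the cochaperone p23, led with 43.1 ± 4.88 RPKM. *Ptgs2* had 11.7 ± 14.02 RPKM, *Ptges2*, a membrane-associated prostaglandin E synthase, 8.04 ± 0.668 RPKM, *Hpgd* 5.55 ± 3.86 RPKM and *Ptgr1*, a reductase that acts on the keto forms left by the dehydrogenase, 4.55 ± 3.15 RPKM. These 4 neighbours in the order did not differ beyond their spread. The rest were low, with *Ptgds*, the lipocalin-type prostaglandin D synthase, at 1.38 ± 0.630 RPKM, *Ptges*, the inducible microsomal prostaglandin E synthase, at 1.11 ± 0.968 RPKM, *Ptgs1* at 0.419 ± 0.232 RPKM, *Ptger4*, the EP4 receptor for prostaglandin E2, at 0.255 ± 0.141 RPKM and *Slco2a1* at 0.207 ± 0.0688 RPKM.

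*Hpgd* (ENSMUSG00000031613.9) lies on chr8:56294585-56321043 of GRCm38, plus strand, and has 1 annotated transcript of 7 exons and 1683 bases with no overlapping gene. *Ptgs2* (ENSMUSG00000032487.8) lies on chr1:150100031-150108227, plus strand, with 11 exons. Start regions of all 10 genes were in the RefSeq table (GRCm38.p6), each with 250 bases before and 50 after the RefSeq start. They were searched on both strands for TATAAA (the core promoter box), for the CCAAT box, for CACGTG (the E-box), for TGACG (the core of the cyclic AMP response element) and for that element in full (TGACGTCA). These motifs were in 13.6%, 37.4%, 7.15%, 20.8% and 1.79% of 32851 mouse start regions of the same length. The stretches with motifs are shown for the 2 genes whose counts spread in opposite ways, *Hpgd* between groups and *Ptgs2* between replicate numbers, with the motif letters in capitals:
Hpgd, chr8:56294544-56294573, plus strand: cacggagtgggcTATAAAagctgctgcggc
Ptgs2, chr1:150100033-150100062, plus strand: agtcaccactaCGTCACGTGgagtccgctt
In *Hpgd* the 1 motif found was TATAAA, which began at base 5 after the RefSeq start and 29 bases before the GENCODE start. In *Ptgs2* the response element core, read on the other strand, began at base 14 after the start and shared their last bases with the E-box, which began at base 17. No other member held both of these motifs. A match describes letters only, and no binding was measured here.

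*Hpgd* was higher in every apoE2 and apoE3 library than in every control library, and it lay in the control range in apoE4. The control libraries had 2.23, 3.94, 4.50 and 5.92 CPM in replicates 1 to 4. With apoE2 they had 7.75, 7.72, 12.6 and 14.8 CPM. With apoE3 they had 16.8, 18.7, 23.01 and 14.96 CPM, so the lowest apoE3 library lay just above the highest apoE2 library. On raw library totals, without the TMM factors, these 2 libraries were at 15.4 and 17.0 CPM and the groups overlapped, while the other separations of *Hpgd* held. With apoE4 the values were 3.66, 4.82, 3.65 and 4.27 CPM, a narrower range than in any other group. The counts behind these values were 49 to 604 per library.

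**Figure D1:**
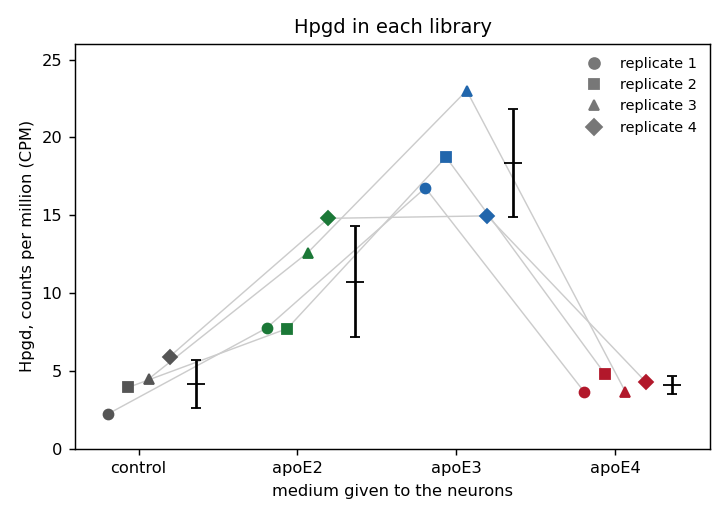
*Hpgd* in CPM (vertical axis) in each of the 16 libraries by the medium given to the neurons (horizontal axis), with marker shapes for replicate numbers, grey lines joining equal numbers, and black bars for the group mean ± SD. The apoE3 libraries sit between 14.96 and 23.01 CPM and the apoE4 libraries between 3.65 and 4.82 CPM, within the control range of 2.23 to 5.92 CPM.

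The group means of *Hpgd* were 4.15 ± 1.53 CPM in control, 10.7 ± 3.56 CPM with apoE2, 18.4 ± 3.46 CPM with apoE3 and 4.10 ± 0.559 CPM with apoE4 (SD, n = 4). The fitted log2 fold change was 1.37 (SE 0.28) for apoE2 against control, 2.15 (SE 0.29) for apoE3 against control and −0.01 (SE 0.28) for apoE4 against control. Between isoforms it was −2.16 (SE 0.29) for apoE4 against apoE3, −1.38 (SE 0.28) for apoE4 against apoE2 and 0.77 (SE 0.28) for apoE3 against apoE2. Within replicate numbers the apoE3 library held 2.53 to 7.52 times the CPM of its control, the apoE2 library 1.96 to 3.48 times and the apoE4 library 0.722 to 1.64 times. The same non-overlap in the same direction was met by 1.14% of tested genes in apoE2 against control, 1.4% in apoE3 against control, 1.11% in apoE4 against apoE3, 1.5% in apoE4 against apoE2 and 0.698% in apoE3 against apoE2. Since *Hpgd* was chosen on these contrasts, nothing is read from those shares. In bulk RNA, fewer cells of a type and less RNA per cell cannot be told apart.

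Of the variation of *Hpgd* in log2 CPM, 87.1% lay between groups and 5.45% between replicate numbers. The medians over the tested genes were 14.4% and 56.1%, but *Hpgd* was chosen for its differences between groups, so nothing is read from this contrast. The summed level of 6 cell-cycle genes was 7.49 to 18.2 CPM in control, 19.6 to 29.2 CPM with apoE2, 26.7 to 40.7 CPM with apoE3 and 12.3 to 29.9 CPM with apoE4. None of the 6 was at 0 in a library, and *Top2a* alone reached 35.0 CPM with apoE3. With the replicate number as a block 1 of the 6 rose in apoE2 against control, 1 in apoE3 and 0 in apoE4 (with the block 1.73%, 11.7% and 3.3% of tested genes passed in either direction), and their median blocked log2 fold changes were 0.26, 0.61 and 0.84. Over the 16 libraries, which share the cultures' replicate numbers, the Pearson correlation of *Hpgd* with this sum on the log2 scale was 0.76, and with the astrocyte sum it was 0.22. Without *Top2a* the other 5 genes summed to 5.03 to 10.7 CPM in control, 4.66 to 10.7 CPM with apoE2, 5.70 to 21.2 CPM with apoE3 and 6.56 to 19.5 CPM with apoE4, and the correlation of *Hpgd* with that sum was 0.020. After subtraction of each number's mean *Hpgd* correlated at 0.82 with the sum of all 6, and at 0.66 with that of 5 oligodendrocyte precursor genes. With choroid plexus, oligodendrocyte, astrocyte and activity-regulated genes it then correlated at 0.42, 0.40, 0.35 and −0.50. Without that subtraction the precursor value was 0.09, and the values in the order just given were 0.14, 0.11, 0.22 and −0.098. The parts of all these in its levels were not tested.

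Of 17037 other tested genes, the 5 whose log2 CPM followed *Hpgd* most closely over the 16 libraries were *Nfyb* (r = 0.94), *Fhod3* (0.90), *Top2a* (0.89), *Ngfr* (0.89) and *Ptpn1* (0.88). *Nfyb* encodes a subunit of the CCAAT-binding factor NF-Y, and it ranged from 31.0 to 45.5 CPM in control, 48.6 to 67.5 CPM with apoE2, 53.6 to 88.9 CPM with apoE3 and 35.4 to 48.9 CPM with apoE4. *Ngfr*, the p75 neurotrophin receptor, ranged from 6.55 to 28.9 CPM in control, 27.3 to 96.7 CPM with apoE2, 60.1 to 124 CPM with apoE3 and 6.09 to 27.0 CPM with apoE4. *Top2a*, a topoisomerase of dividing cells and itself 1 of the 6 cell-cycle genes, ranged from 2.18 to 7.44 CPM in control, 8.88 to 21.4 CPM with apoE2, 15.8 to 35.0 CPM with apoE3 and 4.15 to 10.4 CPM with apoE4, where its log2 fold change against control was 0.68 (SE 0.42). After the mean of each replicate number was subtracted, the correlations were 0.98 for *Ngfr*, 0.97 for *Nfyb*, 0.94 for *Fhod3*, a formin that assembles actin, 0.91 for *Top2a* and 0.90 for *Ptpn1*. The order then changed, with *Ell2* (0.96) and *Agfg1* (0.96) ahead of *Fhod3*, *Top2a* at rank 22 and *Ptpn1* at rank 29. These coefficients describe likeness over 16 libraries, and the genes were picked for it.

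None of the other 9 genes passed an adjusted p of 0.05 in any of the 6 comparisons in edgeR's quasi-likelihood test, and DESeq2 called none of them either. Over all tested genes the share that edgeR called was 0% for apoE2 against control, 0.00587% for apoE3 against control, 0.194% for apoE4 against control, 0.147% for apoE4 against apoE3, 0.252% for apoE4 against apoE2 and 0% for apoE3 against apoE2. At an unadjusted p under 0.05, 1 of the 9 genes passed in apoE3 against control (6.43% of tested genes) and 1 in apoE4 against apoE3 (4.7%), *Ptges3* both times. None of the 9 passed in apoE2 against control (2.79%), apoE4 against control (3.3%), apoE4 against apoE2 (5.34%) or apoE3 against apoE2 (2.28%). At the criterion stated in the study's methods, a change of at least 2-fold at an unadjusted p under 0.05, the count was also 0 of 9 in every comparison, beside 0.722%, 1.96%, 1.15%, 1.25%, 1.3% and 0.687% of tested genes in the order above. Against control the 9 genes had a median log2 fold change of 0.01 for apoE2, 0.12 for apoE3 and 0.12 for apoE4, and all tested genes had 0.01, 0.02 and 0.0020. The 3 comparisons with control share the same control libraries.

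With the replicate number as a block, 3 of the 9 genes passed in apoE3 against control, where 11.7% of tested genes did. *Ptges* and *Ptgr1* rose, as did 7.95% of tested genes, and *Ptgs2* fell, as did 3.73%. With the block 2 of the 9, *Ptges* and *Ptgs2*, also met the study's criterion there, as did 4.77% of tested genes. None of the 9 passed an adjusted p of 0.05 with the block in apoE2 against control (1.73% of tested genes), apoE4 against control (3.3%), apoE4 against apoE3 (1.76%), apoE4 against apoE2 (4.44%) or apoE3 against apoE2 (1.31%). The count in apoE3 against control was 1, 3, 0 and 2 when all libraries of replicate number 1, 2, 3 or 4 were left out of the blocked fit. Without number 1 it was *Ptgs2*, without number 2 the same 3 genes, and without number 4 *Ptgs2* and *Ptges3* (log2 fold change 0.31, edgeR adjusted p = 0.0445). Each of these genes is given below with its values in every library.

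**Figure D2:**
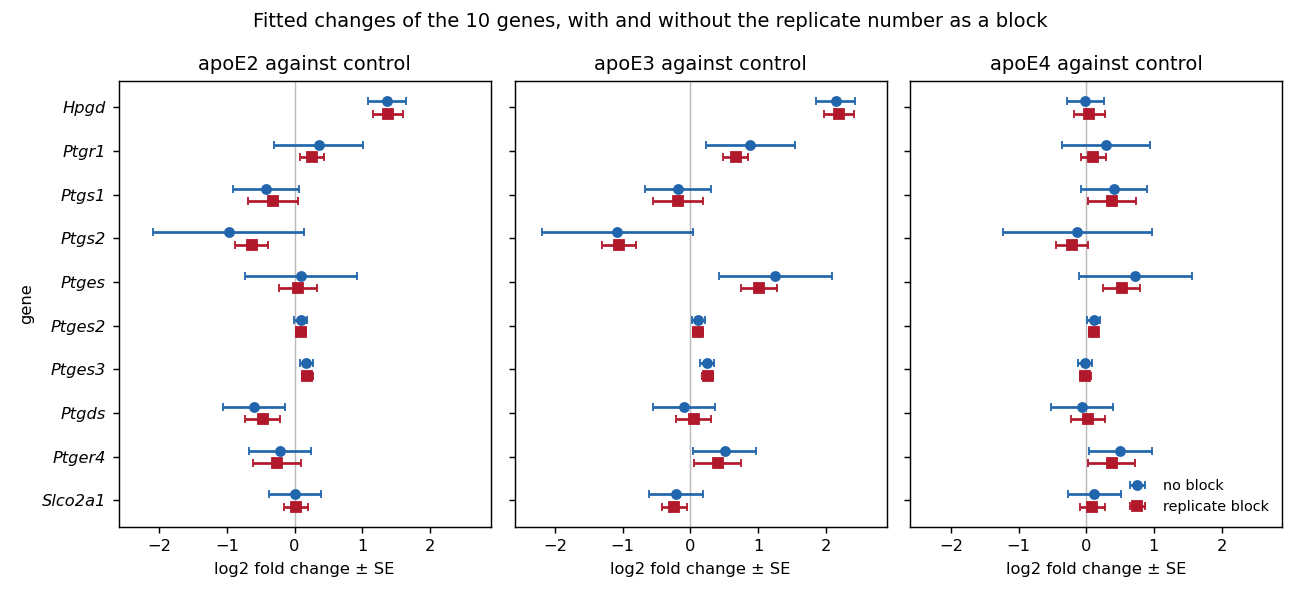
Fitted log2 fold change ± SE (horizontal axis) of the 10 genes (vertical axis) for apoE2, apoE3 and apoE4 against control, without a block (blue circles) and with the replicate number as a block (red squares). The error bars of *Ptgs2*, *Ptges* and *Ptgr1* shrink with the block, where the apoE3 values are −1.05, 1.01 and 0.67. *Hpgd* is shown as a description.

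*Ptgr1* acts after *Hpgd* in prostaglandin breakdown, and its level differed more between replicate numbers than between groups. Replicates 1 to 4 had 8.68, 4.79, 4.96 and 12.8 CPM in control, and 13.8, 3.74, 6.55 and 15.8 CPM with apoE2. They had 16.7, 4.67, 6.78 and 29.7 CPM with apoE3, and 11.7, 3.25, 4.65 and 18.7 CPM with apoE4. All groups overlapped, and replicate numbers 1 and 4 lay above numbers 2 and 3 in every group. The log2 fold change for apoE3 against control was 0.89 (SE 0.66, edgeR adjusted p = 0.809) without the block and 0.67 (SE 0.18, edgeR adjusted p = 0.0281) with it, and apoE3 was higher in 3 of 4 numbers. Without replicate number 1, 3 or 4 the blocked adjusted p of *Ptgr1* was 0.199, 0.0860 or 0.150. In apoE4 against apoE3 it was lower in 4 of 4 numbers, with a blocked log2 fold change of −0.57 (SE 0.18, edgeR adjusted p = 0.136).

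*Ptges* was likewise higher in replicate numbers 1 and 4 than in numbers 2 and 3 in every group. The control replicates 1 to 4 had 4.09, 1.45, 1.22 and 4.66 CPM, and the apoE2 replicates 6.13, 1.07, 1.69 and 3.41 CPM. With apoE3 the values were 11.3, 1.39, 2.21 and 12.4 CPM, and with apoE4 they were 6.71, 1.03, 1.72 and 9.46 CPM. The highest values were thus the apoE3 libraries of numbers 1 and 4, while number 2 stayed under 1.5 CPM in every group. The log2 fold change for apoE3 against control was 1.25 (SE 0.84, edgeR adjusted p = 0.806) without the block and 1.01 (SE 0.27, edgeR adjusted p = 0.0265) with it, higher in 3 of 4 numbers. Without number 1, 3 or 4 the blocked adjusted p of *Ptges* was 0.235, 0.0945 or 0.0585.

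The astrocyte genes moved with *Ptges* and *Ptgr1*. Their sum was 1413 to 3162 CPM in control, 1309 to 3151 CPM with apoE2, 1700 to 6581 CPM with apoE3 and 1571 to 5359 CPM with apoE4. In the blocked fit 7 of the 8 rose in apoE3 against control, where 7.95% of tested genes rose. In apoE4 against control 3 of the 8 rose and in apoE2 against control 0, where 3.3% and 1.73% of tested genes passed in either direction. None of the 8 was at 0 in any library, and *Gfap* alone reached 1288 CPM in control and 3449 CPM with apoE3. Over the 16 libraries the log2 correlation with the astrocyte sum was 0.82 for *Ptges* and 0.83 for *Ptgr1*, and 0.93 and 0.74 after subtraction of each number's mean. The part of astrocyte RNA in the apoE3 values was not tested. The sums of 6 oligodendrocyte genes (95.1 to 413 CPM in control, 121 to 713 CPM with apoE3) and of 6 meningeal fibroblast genes (16.5 to 134 CPM in control, 17.6 to 215 CPM with apoE3) also moved with both genes, at correlations of 0.97 and 0.96 for *Ptges* and of 0.93 and 0.91 for *Ptgr1*. For the oligodendrocyte precursor and the endothelial sums the correlations were 0.92 and 0.79 with *Ptges* and 0.88 and 0.82 with *Ptgr1*. In the library with the highest endothelial sum, 65.4 CPM, a single gene gave 61.3 CPM. For the mural and the choroid plexus sums the correlations were 0.84 and 0.84 with *Ptges* and 0.91 and 0.90 with *Ptgr1*, and for the neuron sum they were −0.90 and −0.92. After subtraction of each number's mean the correlations, in order from the oligodendrocyte to the neuron sum, were 0.89, 0.81, 0.72, 0.75, 0.70, 0.88 and −0.90 for *Ptges*. For *Ptgr1* they were 0.73, 0.43, 0.83, 0.52, 0.59, 0.73 and −0.70. The parts of these cell types were not tested either.

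*Ptgs2*, the inducible cyclooxygenase, had the widest range of the 10 genes, 5.58 to 207 CPM. Replicates 1 to 4 had 22.6, 54.9, 207 and 11.4 CPM in control, 26.6, 17.6, 95.9 and 10.8 CPM with apoE2, 14.7, 20.7, 98.4 and 5.58 CPM with apoE3, and 21.6, 46.5, 194 and 7.58 CPM with apoE4. Replicate number 3 was the highest and number 4 the lowest in every group, and all groups overlapped. Between replicate numbers lay 89.0% of its log2 variation, and 6.47% lay between groups.

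Within replicate numbers *Ptgs2* was lower with apoE3 than in control in 4 of 4, at 0.378 to 0.651 times the control CPM. With apoE4 it was also lower in 4 of 4, at 0.664 to 0.957 times, and with apoE2 in 3 of 4, at 0.320 to 1.18 times. The log2 fold change was −1.08 (SE 1.12, edgeR adjusted p = 0.827) without the block and −1.05 (SE 0.25, edgeR adjusted p = 0.0148) with it. Without replicate number 3 the blocked value was −1.05 at an adjusted p of 0.0761. In the fit without the block the value turned to 0.24 when control replicate 3 was left out and was −2.43 without apoE3 replicate 3. For apoE2 the blocked log2 fold change was −0.63 (SE 0.25, edgeR adjusted p = 0.260) and for apoE4 −0.21 (SE 0.24, edgeR adjusted p = 0.706).

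The 12 activity-regulated genes, among them *Fos*, *Arc* and *Npas4*, moved with *Ptgs2*. They summed to 980 to 1410 CPM in replicate number 3 and to 362 to 499 CPM in number 4, and the correlation with *Ptgs2* on the log2 scale was 0.96 over the 16 libraries and 0.82 after subtraction of each number's mean. Over the 16 libraries *Ptgs2* also correlated at 0.85 with the neuron sum, and at −0.89 with the microglial, −0.83 with the endothelial, −0.76 with the mural and −0.70 with the meningeal fibroblast sum. After subtraction of the number means these values were 0.46, −0.37, −0.41, −0.33 and −0.14. With the cell-cycle and choroid plexus sums it correlated at −0.54 and −0.44 over the 16 libraries, and at −0.81 and −0.68 after that subtraction. The cell-cycle sum includes *Top2a*, and the sum without *Top2a* was not compared with *Ptgs2*. In the blocked fit of apoE3 against control 3 of the 12 activity-regulated genes fell and 1 rose, where 3.73% of tested genes fell and 7.95% rose. The median log2 fold change of the 12 was −0.45. Their sum with apoE3 was 0.695 to 0.962 times that of the control library of the same number. The parts of activity-regulated transcription, of these cell types and of cell-cycle genes in the *Ptgs2* values were not tested.

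**Figure D3:**
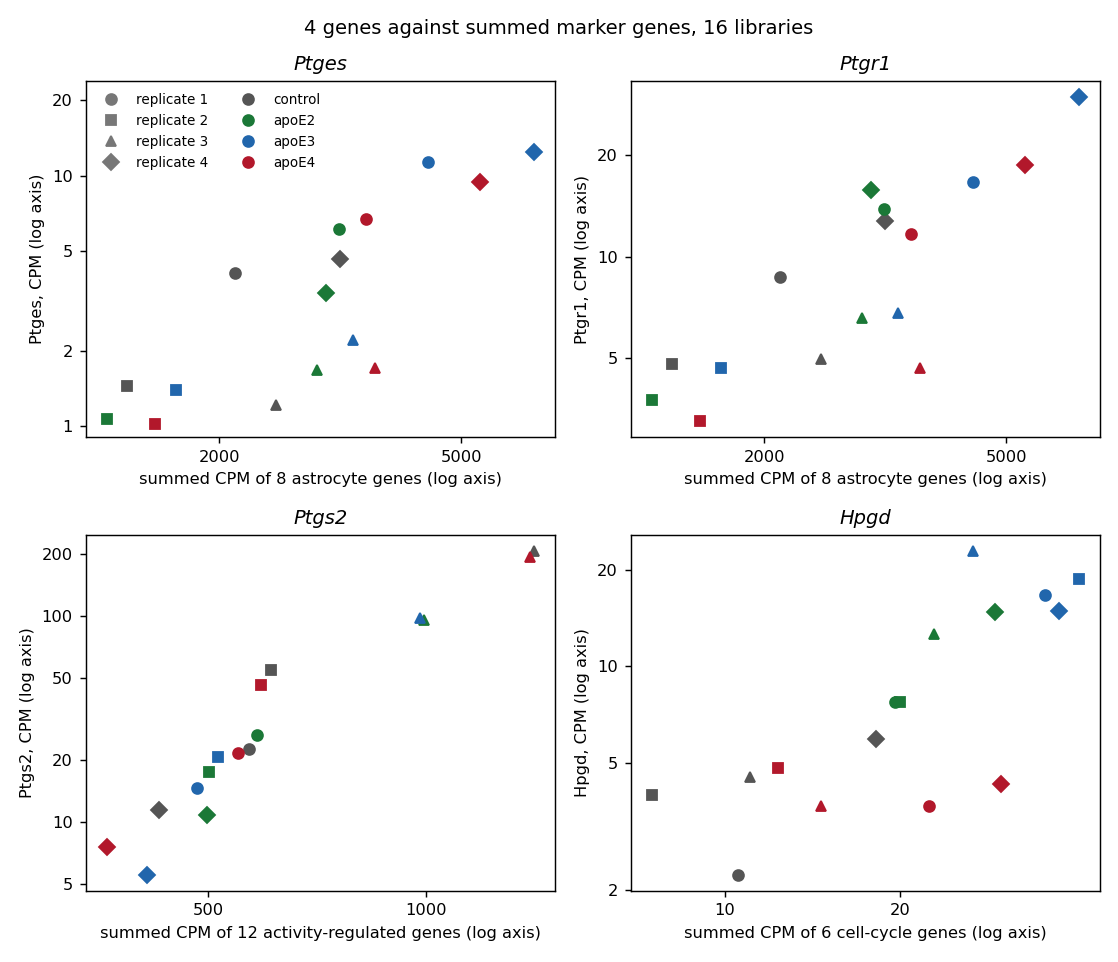
CPM of *Ptges*, *Ptgr1*, *Ptgs2* and *Hpgd* (vertical log axes) against the summed CPM of 8 astrocyte, 12 activity-regulated or 6 cell-cycle genes (horizontal log axes), 1 point per library, with colours for groups and shapes for replicate numbers. The *Ptgs2* points of replicate number 3 lie at 95.9 to 207 CPM, and the apoE4 points of *Hpgd* lie at 3.65 to 4.82 CPM, at cell-cycle sums of 12.3 to 29.9 CPM.

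*Ptgs1*, the constitutive cyclooxygenase, was near the floor of these libraries with 11 to 81 counts. It ranged from 0.500 to 2.83 CPM in control, 0.941 to 1.48 CPM with apoE2, 0.902 to 2.44 CPM with apoE3 and 1.40 to 4.26 CPM with apoE4. The groups overlapped, and its log2 fold changes against control were −0.42 (SE 0.49), −0.19 (SE 0.49) and 0.41 (SE 0.49) for apoE2, apoE3 and apoE4. A difference of 2-fold between groups would be about 2 of these standard errors, so smaller differences could not be told from the spread between libraries. The lowest of its 16 values was control replicate 1 and the highest apoE4 replicate 3.

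*Ptges3* varied little, at 73.9 to 108 CPM. Its replicates had 73.9, 79.3, 101 and 102 CPM in control, 99.0, 101, 104 and 98.3 CPM with apoE2, 106, 105, 103 and 108 CPM with apoE3, and 81.0, 80.4, 93.4 and 96.0 CPM with apoE4. Every apoE3 library lay above every control library and every apoE4 library, and every apoE2 library above every apoE4 library, as was the case in the same direction for 1.4%, 1.11% and 1.5% of tested genes. On raw library totals each of these 3 pairs of groups overlapped, and the log2 fold change for apoE3 against control was 0.19 (SE 0.12). With TMM scaling the log2 fold changes were 0.25 (SE 0.10, edgeR adjusted p = 0.757) for apoE3 against control and −0.27 (SE 0.10, edgeR adjusted p = 0.959) for apoE4 against apoE3. Of the 9 genes, *Ptges3* followed *Hpgd* most closely, with a log2 correlation of 0.77 over the 16 libraries (rank 42 of 17037 tested genes). Its correlation with the cell-cycle sum, which includes *Top2a*, was 0.70, and after subtraction of each number's mean it was 0.76. The sum without *Top2a* was not compared with *Ptges3*. With the oligodendrocyte precursor sum the correlations were 0.18 and 0.72 in the same order, and the parts of both sums were not tested.

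*Ptges2* was the steadiest of the 10 genes, at 35.0 to 45.5 CPM, with group means of 38.4 ± 3.32 CPM in control, 41.0 ± 2.54 CPM with apoE2, 41.7 ± 3.63 CPM with apoE3 and 41.5 ± 4.17 CPM with apoE4 (SD, n = 4). Its log2 fold changes against control were 0.09 to 0.12 with standard errors of 0.10. *Ptgds* ranged from 0.926 to 4.27 CPM with overlapping groups, and its values followed the replicate numbers, with means of 2.93 and 3.12 CPM in numbers 1 and 4 and of 1.28 and 1.73 CPM in numbers 2 and 3. Its log2 fold change was −0.60 (SE 0.46) for apoE2 against control.

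**Figure D4:**
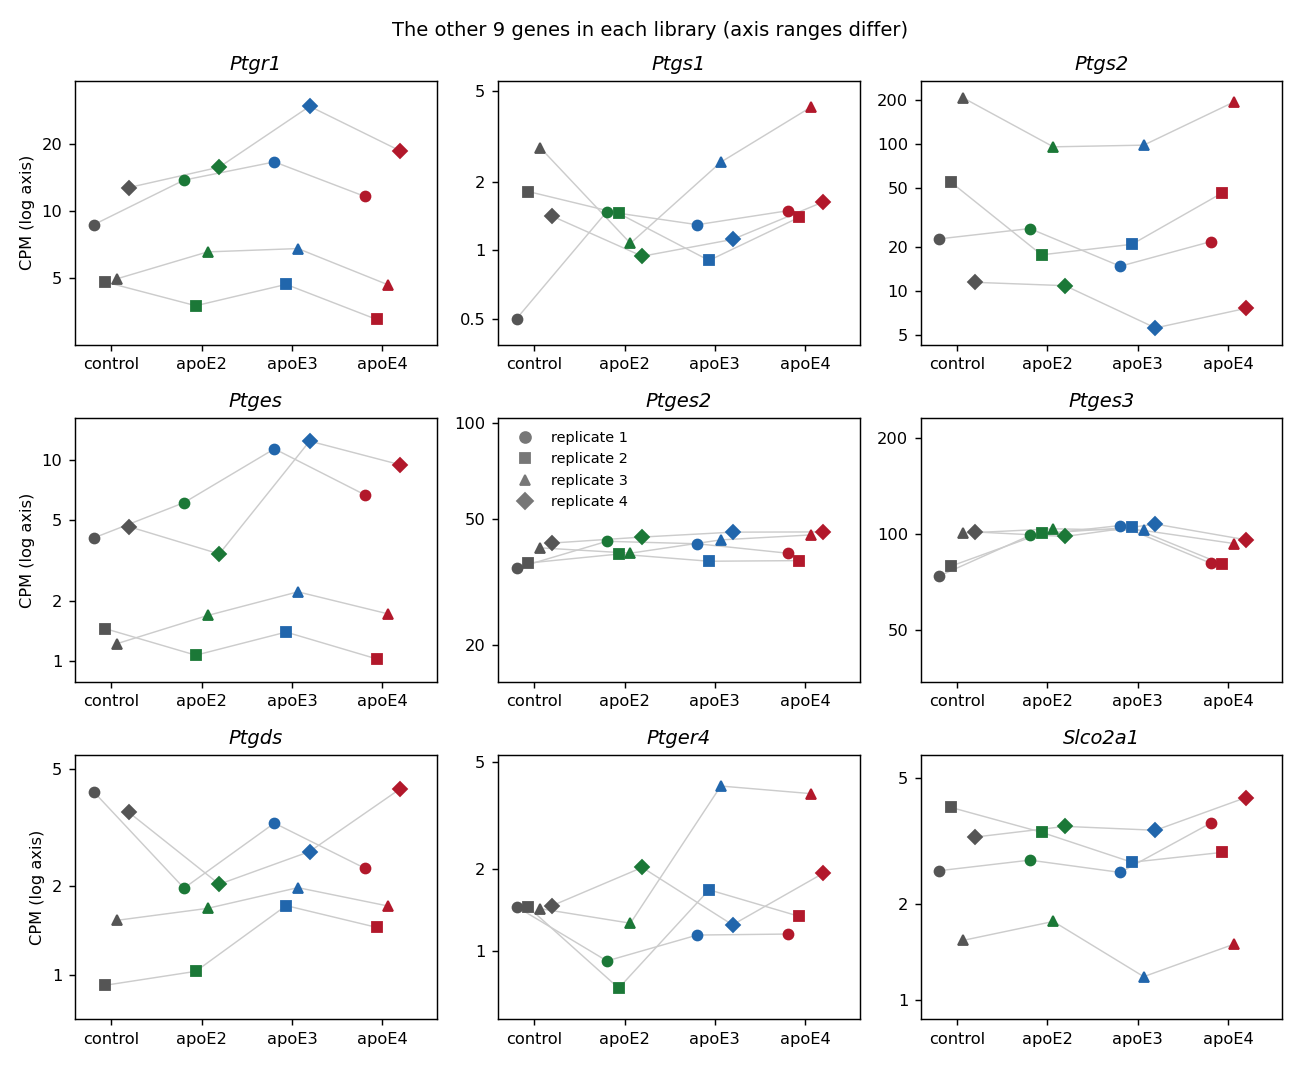
CPM (vertical log axes, with a range of their own in each panel) of the 9 genes other than *Hpgd* in each library by group (horizontal axes), with shapes for replicate numbers and grey lines joining equal numbers. *Ptges3* lies between 73.9 and 108 CPM in all libraries, and *Ptgs2* between 5.58 and 207 CPM with the 4 libraries of replicate number 3 on top.

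*Ptger4* had 13 to 107 counts per library. It was even in control, at 1.43 to 1.47 CPM, and ranged from 0.726 to 2.03 CPM with apoE2, 1.14 to 4.08 CPM with apoE3 and 1.15 to 3.82 CPM with apoE4. The 2 highest values were replicate 3 of apoE3 and replicate 3 of apoE4, so its log2 fold change of 0.51 (SE 0.46) for apoE3 against control became −0.09 without apoE3 replicate 3. Of its exon bases 16.5% overlap genes on the other strand, and whether the counting used strand is not given in the sources used here. *Slco2a1* ranged from 1.18 to 4.32 CPM, and replicate number 3 was the lowest in every group, at 1.18 to 1.76 CPM. Its group means were 2.84 ± 1.06, 2.85 ± 0.794, 2.45 ± 0.932 and 3.08 ± 1.20 CPM for control, apoE2, apoE3 and apoE4 (SD, n = 4).

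Beyond the 10 genes, 41 genes of the pathway were listed by role, and 27 of them could be tested. None passed an adjusted p of 0.05 in edgeR without the block in the 6 comparisons. At the study's criterion, *Ptger3* passed in apoE2 against control (0.722% of tested genes) and in apoE4 against apoE2 (1.3%), and *Alox5* and *Ptgfr* passed in apoE3 against control (1.96%). *Ptger3* and *Ptgfr* are also in gene lists that the study drew from these libraries, so their direction is not independent evidence. With the block 1 of the 27 genes passed in apoE2 against control (1.73% of tested genes), 2 in apoE3 against control (11.7%), 2 in apoE4 against apoE2 (4.44%) and 0 in the other 3 comparisons. *Dagla*, a diacylglycerol lipase, with −0.39 (edgeR adjusted p = 0.0387) for apoE3 against control, and *Pla2g4e*, a phospholipase, with −0.61 (edgeR adjusted p = 0.0329) for apoE4 against apoE2, were named after their blocked values were seen.

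*Ptger3* encodes the EP3 receptor for prostaglandin E2. Replicates 1 to 4 had 15.4, 11.2, 12.1 and 20.01 CPM in control, 25.5, 30.1, 23.7 and 41.9 CPM with apoE2, 29.3, 22.2, 25.7 and 17.5 CPM with apoE3, and 18.1, 14.3, 9.30 and 8.24 CPM with apoE4. All apoE2 libraries lay above all control and all apoE4 libraries, whereas apoE3 overlapped both (on raw library totals it lay above apoE4, by 18.0 against 17.0 CPM for the nearest libraries). The log2 fold change for apoE2 against control was 1.05 (SE 0.27, edgeR adjusted p = 0.726) without the block and 1.07 (edgeR adjusted p = 0.0358) with it. For apoE4 against apoE2 it was −1.28 (SE 0.27, edgeR adjusted p = 0.0919) without the block and −1.30 (edgeR adjusted p = 0.00693) with it. Without replicate number 1, 2 or 3 the blocked adjusted p of *Ptger3* for apoE2 against control was 0.143, 0.226 or 0.184, and without number 3 that for apoE4 against apoE2 was 0.0607. *Ptger3* correlated with the cell-cycle sum at 0.49, and at 0.52 after subtraction of each number's mean. With the meningeal fibroblast sum the values were 0.02 and −0.57, and the parts of both were not tested.

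**Figure D5:**
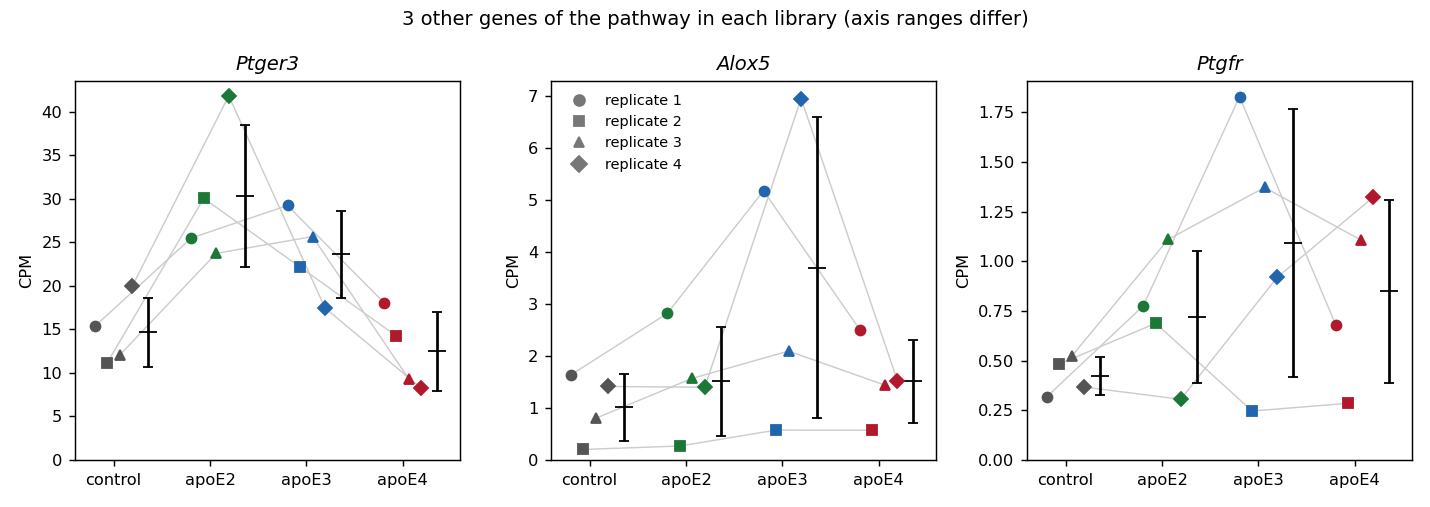
CPM (vertical axes, with a range of their own in each panel) of *Ptger3*, *Alox5* and *Ptgfr* in each library by group (horizontal axes), with shapes for replicate numbers, grey lines joining equal numbers and black bars for the group mean ± SD. The apoE2 libraries of *Ptger3* lie at 23.7 to 41.9 CPM, above the control libraries at 11.2 to 20.01 CPM.

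*Alox5* encodes arachidonate lipoxygenase, which leads to leukotrienes in place of prostaglandins. It had 1.64, 0.201, 0.803 and 1.41 CPM in the control replicates and 5.18, 0.574, 2.10 and 6.96 CPM with apoE3, higher in 4 of 4 numbers with overlapping groups. These values rest on few counts, 91 in the 4 control libraries together and 243 in the 4 apoE3 libraries together. The log2 fold change was 1.86 (SE 0.79, edgeR adjusted p = 0.767) without the block and 1.78 (edgeR adjusted p = 0.00317) with it. The correlation of *Alox5* with the astrocyte sum was 0.88 over the 16 libraries. With the sums of oligodendrocyte precursor, oligodendrocyte and choroid plexus genes it was 0.90, 0.88 and 0.85. After subtraction of each number's mean the values, in order from astrocyte to choroid plexus, were 0.79, 0.84, 0.68 and 0.80. The part of these cell types was not tested. *Ptgfr*, the receptor for prostaglandin F2α, had 6 to 36 counts per library, at most 0.524 CPM in control and 0.246 to 1.83 CPM with apoE3. After subtraction of each number's mean it correlated at 0.90 with the endothelial, 0.80 with the oligodendrocyte, 0.74 with the astrocyte and 0.72 with the choroid plexus sum. Without that subtraction the values were 0.26, 0.48, 0.63 and 0.44, and the parts of these cell types were not tested. Of the 8 other prostanoid receptors listed, *Ptger2*, *Ptgdr*, *Ptgdr2*, *Ptgir* and *Tbxa2r* were too low to test.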

How the data were processed

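Total RNA of 16 cultures of mouse hippocampal neurons (4 groups of 4) was sequenced after ribosomal RNA depletion with a TruSeq kit. Per the study's methods, the authors aligned reads to mm10 with STAR, made count tables with HTSeq and normalized them with DESeq2 size factors. The deposited files hold whole-number counts per gene symbol with differing totals, and were taken as raw counts. The annotation and the use of strand are not given in the sources used here. Tallies that HTSeq put on no single gene, 38.4% to 73.7% of each file, were left out.

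Counts were filtered (filterByExpr, minimum count 10), TMM-scaled and tested with edgeR 4.0.16 in R 4.3.3, with 1 coefficient per group and Benjamini-Hochberg adjustment over 17038 genes. The scripts were tested on simulated data. CPM used library totals scaled by the TMM factors, and log2 CPM for correlations and variation used a prior count of 2. RPKM used GENCODE M21 exon lengths. Deviations from group means correlated at 0.362 to 0.831 between libraries of the same replicate number in all 24 pairs. In 72 pairs of different number and group they correlated at −0.736 to 0.569, which overlaps the range of number 1, 0.362 to 0.552. On this basis the numbers, which come from the labels, were taken to pair the cultures. The methods name 4 independent cultures per group and no block.

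Named genes were the 10 listed genes, pathway genes that passed in edgeR or met the study's criterion, and the 5 genes most correlated with *Hpgd*. Members, lists and tests were chosen with earlier results of these data known. Alternatives were DESeq2 1.42.0 and its size factors, other count filters, fits restricted to each pair of groups, a replicate block and leaving out each library.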

Additional observations from a re-analysis of the deposited data

Results flagged for a closer look

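Values were checked for a single library far from the other 3 of its group in 52 gene and group combinations, and chance alone puts about 1 in 20 such groups past the limit. *Ptgs1* in apoE4 replicate 3 was at 4.26 CPM, whereas the nearest library of the group was at 1.63 CPM. *Ptgs2* in apoE3 replicate 3 was at 98.4 CPM, whereas the nearest library of the group was at 20.7 CPM. Both libraries carry replicate number 3, in which *Ptgs2* was the highest of its group in all 4 groups.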

How the results depend on the processing

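The 6 log2 fold changes of *Hpgd* moved little over 28 fits each (TMM, DESeq2 size factors or raw library totals, other count filters, DESeq2, fits of the compared groups alone, the replicate block, and fits with a library or a replicate number left out). They ranged from 1.16 to 1.59 for apoE2 against control, 1.94 to 2.45 for apoE3 against control, −0.22 to 0.21 for apoE4 against control, −2.25 to −2.00 for apoE4 against apoE3, −1.58 to −1.17 for apoE4 against apoE2 and 0.65 to 1.07 for apoE3 against apoE2. With the replicate block the count of the other 9 genes in apoE3 against control was 3 at an adjusted p under 0.05 and 2 at the study's criterion, where the unblocked fit gave 0 and 0, and it was 0 to 3 when a library or a number was left out. The block changed no call of the 9 genes in the other comparisons. For the 27 other pathway genes the blocked count at an adjusted p was 1 in apoE2 against control, 2 in apoE3 against control and 2 in apoE4 against apoE2, and DESeq2 gave 1 in the last, *Ptger3* (adjusted p = 0.0022). At the criterion the count in apoE3 against control was 1 with a filter of 1 CPM in 8 libraries and 1 with only those groups in the fit, in apoE4 against apoE2 it was 2 without a filter and 2 in DESeq2, in apoE4 against control 1 in DESeq2, and with the block 1 in apoE4 against apoE3 and 1 in apoE3 against apoE2. With all libraries it was 1 in apoE2 against control, 2 in apoE3 against control, 1 in apoE4 against apoE2 and 0 elsewhere, and with 1 library left out it ranged over 0 to 1, 0 to 2 and 1 to 2 in these, 0 to 3 in apoE4 against control, 0 to 1 in apoE4 against apoE3 and 0 to 1 in apoE3 against apoE2. Raw library totals, chosen after the data were seen, gave the same counts as TMM. The value of *Hpgd* for apoE4 against control, −0.01 without and 0.04 with the block, lay near 0 and changed sign. Among the printed log2 fold changes of the other genes signs turned only when a library was left out of the fit without the block. None of these genes passed an adjusted p in edgeR without the block. *Ptgs2* in apoE3 against control, which passed with the block, was among those whose sign turned. The ranges for *Ptgs2* were −2.05 to 0.35 (apoE2 against control), −2.43 to 0.24 (apoE3 against control) and −1.55 to 1.19 (apoE4 against control), for *Ptgs1* −0.58 to 0.22 (apoE3 against control) and −0.13 to 0.81 (apoE4 against control), for *Ptger4* −0.087 to 0.70 (apoE3 against control) and for *Ptgr1* −1.15 to 0.028 (apoE4 against apoE3). The fits of leave-one-out libraries kept 3 in the group concerned. The cause of these changes was not tested. Counts limit *Ptgs1*, *Ptges*, *Ptgds*, *Ptger4*, *Slco2a1*, *Ptgfr* and *Alox5*, which had under 190 counts in every library.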
